A study of Mus musculus with 2 samples.

Results

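The respiratory chain genes described here are the subunits of complexes I to V of the mitochondrial inner membrane, taken from both genomes that encode them. The rule that picks them reads gene symbols and no measured value: the protein-coding genes named mt-Nd, mt-Co, mt-Cytb and mt-Atp, and the nuclear Nduf, Sdh, Uqcr, Cox and Atp5 subunit genes. The pattern matched 88 of 31053 annotated gene rows, 75 nuclear and 13 mitochondrial. Of these, 73 nuclear and all 13 mitochondrial members reached a mean of 20 CPM over both libraries, CPM being UMIs scaled to a library total of 1000000. The 2 that did not were Atp5s, a factor associated with the ATP synthase, and a second Atp5o row (ENSMUSG00000116933) that held 0 UMIs in both libraries.

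Complexes I and II pass electrons from NADH and succinate to ubiquinone, complex III passes them to cytochrome c, and complex IV passes them to oxygen. Proton pumping by complexes I, III and IV drives complex V, the ATP synthase. Complex II is encoded by the nucleus alone, while the other complexes combine nuclear subunits with subunits made inside the mitochondrion from mitochondrial DNA, which is transcribed as long precursor RNAs. Haematopoietic stem cells are known for relying more on glycolysis than their dividing progeny do, although they hold many mitochondria.

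The cells were LSK CD150+ bone marrow cells, that is, lineage-negative cells positive for Sca-1, Kit and CD150, a SLAM family receptor. There was 1 library labelled RUNX1 KO and 1 labelled RUNX1 WT, from the Runx1F/F Mx1-Cre mouse model, in which an interferon-inducible recombinase removes a loxP-flanked part of Runx1. Mx1-Cre acts outside the blood system too. Whether an inducer was given, whether the WT mice carried Cre, the ages, and the number of animals behind each library are not given in the sources used here. With 1 library per genotype no difference between them has a replicate check and no test was made. Intervals are 95% and cover counting error only.

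The KO-labelled library gave 10769 kept cells with a median of 9310 UMIs per cell, and the WT library 9472 kept cells with a median of 9884. Runx1 stood at 196 CPM in the KO-labelled library and 104 CPM in the WT library. The tags come from the 3′ end and the labels do not name the deleted part, so each direction given is that of the library labelled KO, whatever its genotype. Xist stood at 1319 CPM in the KO-labelled library and 1.78 CPM in the WT library, and cells with a UMI of a Y-linked gene and no Xist UMI numbered 973 in the KO-labelled library and 6690 in the WT library. Sex by these genes therefore went with the library label, and the KO-labelled library held cells of both patterns. Kept cell barcodes shared by the libraries numbered 33. Stem cell markers were present but low: the 7 listed genes summed to 412 CPM in the KO-labelled library and 443 CPM in the WT library. The 7 megakaryocyte markers summed to 942 CPM in the KO-labelled library and 1828 CPM in the WT library, a difference carried by Pf4, since the other 6 summed to 456 CPM in the KO-labelled library and 345 CPM in the WT library. The 5 granulocyte-monocyte markers summed to 2037 CPM in the KO-labelled library and 1678 CPM in the WT library. The 7 erythroid markers summed to 1309 CPM in the KO-labelled library and 956 CPM in the WT library, and without Hbb-bs to 792 CPM in the KO-labelled library and 823 CPM in the WT library. The 6 cycling markers summed to 1557 CPM in the KO-labelled library and 1714 CPM in the WT library. The 5 neutrophil markers summed to 593 CPM in the KO-labelled library and 109 CPM in the WT library. Of the basophil or mast cell markers, Mcpt8 stood at 0.755 CPM in the KO-labelled library and 108 CPM in the WT library, Prss34 at 0.0587 CPM in the KO-labelled library and 109 CPM in the WT library, and Fcer1a at 0.176 CPM in the KO-labelled library and 23.6 CPM in the WT library, whereas Cpa3 stood at 164 CPM in the KO-labelled library and 46.4 CPM in the WT library. The 3 B cell markers summed to 104 CPM in the KO-labelled library and 292 CPM in the WT library, and the 3 T or NK cell markers to 142 CPM in the KO-labelled library and 275 CPM in the WT library. Ighm carried the B cell difference, at 65.6 CPM in the KO-labelled library and 260 CPM in the WT library. Cd79b went the other way, with 37.3 and 30.7 CPM, and Cd79a stood at 1.32 and 2.20 CPM in the same order. Nkg7 carried the T or NK difference, with 141 and 275 CPM. Cd3d stood at 0.905 and 0.541 CPM and Cd3e at 0.193 and 0.133 CPM, both higher in the KO-labelled library. The part of these cell mixtures in the library differences was not tested. Ribosomal protein transcripts took 32.3% of UMIs in the KO-labelled library and 29.3% in the WT library, and all values in CPM share that total.

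The transcripts of the mitochondrial genome were lower in the KO-labelled library. The 13 members summed to 43597 CPM in the KO-labelled library and 49143 CPM in the WT library (ratio 0.887, 0.886 to 0.888). They took 4.36% of UMIs in the KO-labelled library and 4.91% in the WT library, the larger share of the chain, since the 75 nuclear members together took 2.25% in the KO-labelled library and 2.38% in the WT library. In single cells the median share was 4.35% in the KO-labelled library and 4.94% in the WT library, and the middle 80% of cells spanned 3.55% to 5.36% in the KO-labelled library and 4.04% to 6.29% in the WT library. The 2 distributions therefore overlapped widely. Only cells with at most 10% mitochondrial UMIs were kept, which bounds this measure. The ratio stayed below 1 under every alternative scaling and cell filter tried, between 0.872 and 0.949.

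Complex I transcripts of mitochondrial origin had the lowest library ratio, 0.841 (0.839 to 0.844), from 7351 CPM in the KO-labelled library and 8737 CPM in the WT library. The proton-pumping arm subunit gene mt-Nd2 stood at 2134 CPM in the KO-labelled library and 2680 CPM in the WT library (ratio 0.796, 0.792 to 0.801). It was the 1 member of 13 with a ratio of 0.8 or less, which 8.63% of all 5676 genes at 20 CPM or more had. The genes mt-Nd4 and mt-Nd3, also of complex I, had ratios of 0.806 and 0.805, from 1997 and 591 CPM in the KO-labelled library against 2477 and 735 CPM in the WT library. The other complex I genes were closer to equal: mt-Nd1 had a ratio of 0.894, mt-Nd6, the gene read from the opposite strand, 0.880, and mt-Nd5 0.955. The gene mt-Nd4l was the 1 member above 1, with 382 CPM in the KO-labelled library and 364 CPM in the WT library (ratio 1.05). It overlaps mt-Nd4 at positions 10167 to 10173 of the mitochondrial genome (GRCm38), so the split of reads between these 2 genes is uncertain. With TMM scaling mt-Nd5 and the complex IV gene mt-Co1 also pass 1.

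The single mitochondrial subunit gene of complex III, mt-Cytb, encodes cytochrome b and stood at 3819 CPM in the KO-labelled library and 4519 CPM in the WT library (ratio 0.845, 0.842 to 0.849). The 3 catalytic core genes of complex IV summed to a ratio of 0.907. Within it mt-Co1, which carries the oxygen-reducing centre, had 5606 CPM in the KO-labelled library and 5847 CPM in the WT library (0.959), mt-Co2 6860 CPM in KO-labelled and 7598 CPM in WT cells (0.903), and mt-Co3 9321 CPM in KO-labelled and 10587 CPM in WT cells (0.880). For complex V, mt-Atp6, part of the proton channel, was the most abundant member of all with 10482 CPM in the KO-labelled library and 11684 CPM in the WT library (0.897). Its short neighbour mt-Atp8 stood at 158 CPM in the KO-labelled library and 172 CPM in the WT library (0.920), and shares positions 7927 to 7969 with it. At 1.1-fold, 9 of the 13 were lower and 0 higher, against 33.8% and 14.3% of all genes. The members did not shift equally: as shares of mitochondrial UMIs, mt-Co1 took 12.9% in the KO-labelled library and 11.9% in the WT library, and mt-Nd2 4.90% in the KO-labelled library and 5.45% in the WT library.

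**Figure D1:**
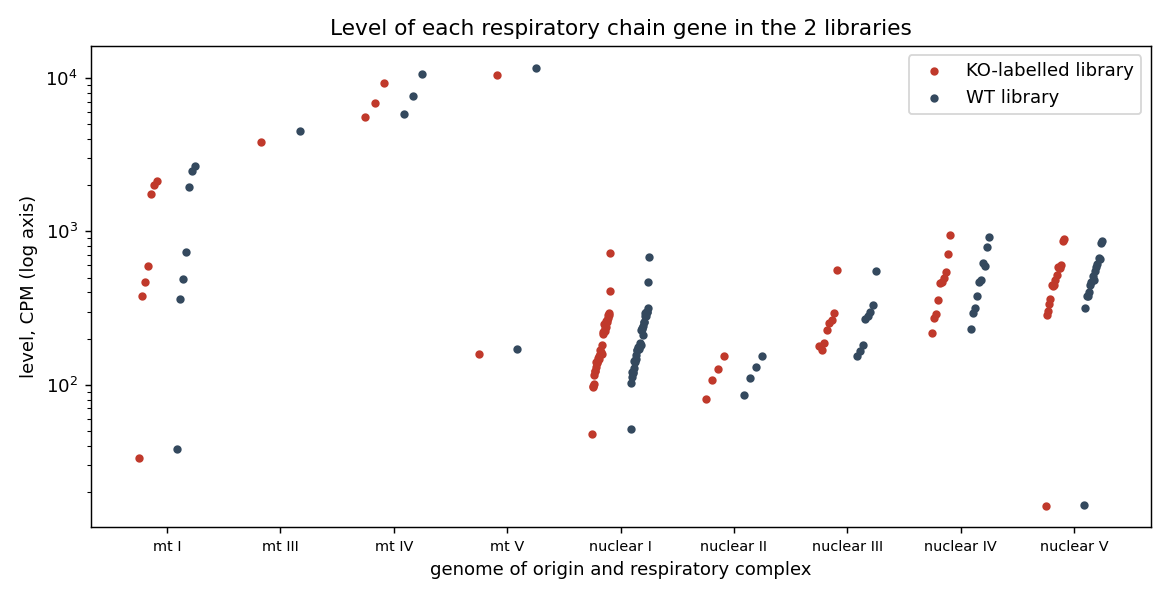
Level of each member with a UMI (vertical log axis, CPM) by complex and genome of origin, 1 point per gene, with the KO-labelled library to the left of the WT library in each column. The mitochondrial genes reach 10482 CPM (mt-Atp6, KO-labelled library), while the highest nuclear gene, Cox4i1, stands at 954 CPM there.

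The nuclear members showed a smaller difference whose direction depended on the scaling. They summed to 22454 CPM in the KO-labelled library and 23762 CPM in the WT library (ratio 0.945, 0.943 to 0.947), which became 1.01 with trimmed-mean (TMM) scaling. Of 73 members, 58 (79.5%) had a ratio below 1, as did 65% of all genes, and the median log2 ratio was -0.10 for the members and -0.07 for all genes. A ratio of 0.8 or less was seen for 1 of 73 (1.37%), against 8.63% of all genes, and a level at least 25% higher for 0 (1 with TMM scaling, Ndufa6), against 4.79%. At 1.1-fold, 21 (28.8%) were lower and 2 higher, against 33.8% and 14.3% of all genes, and at 1.5-fold 0 of the 86 members were lower or higher, against 1.53% and 1.76%. The shares past each fold were thus at or under those of all genes, while the share below 1 was higher.

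By complex the nuclear ratios ran from 0.933 for complex IV through 0.944 for complex I, 0.948 for complex V and 0.959 for complex III to 0.972 for complex II. Counting intervals of these sums are narrow, and TMM scaling multiplies every one of them by the same factor, which takes all but complex IV past 1. The 4 succinate dehydrogenase genes lay together at ratios of 0.943 (Sdhc) to 0.992 (Sdhb). Sdha, the flavoprotein, stood at 127 CPM in the KO-labelled library and 131 CPM in the WT library, and the membrane anchor gene Sdhd at 107 CPM in KO-labelled and 110 CPM in WT cells. In complex I, the 7 core subunits had a summed ratio of 0.961 and the 29 accessory subunits 0.941. The accessory gene Ndufb6 was lowest with 100 CPM in the KO-labelled library and 120 CPM in the WT library (0.833), and Ndufa6 highest with 248 CPM in KO-labelled and 211 CPM in WT cells (1.17). The most abundant Nduf gene, Ndufa4, whose product is now usually assigned to complex IV, stood at 718 CPM in the KO-labelled library and 679 CPM in the WT library (1.06).

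Complex III split evenly, with 4 members below 1 and 4 above. Uqcrfs1, the Rieske iron-sulphur protein, had 178 CPM in the KO-labelled library and 153 CPM in the WT library (1.16), and Uqcrh, the hinge protein, 563 CPM in KO-labelled and 548 CPM in WT cells (1.03). Uqcrq, a small subunit, had 227 CPM in the KO-labelled library and 268 CPM in the WT library (0.846). In complex IV, Cox5a, a small nuclear subunit, had the lowest ratio of all members, with 495 CPM in the KO-labelled library and 624 CPM in the WT library (0.793, 0.784 to 0.802), while Cox4i1 had 954 CPM in KO-labelled and 914 CPM in WT cells (1.04). In complex V the 5 genes of the F1 catalytic head were nearest to equal on the CPM scale, with a summed ratio of 0.991. TMM scaling takes this sum past 1, and which part of the complex is nearest to equal depends on the scaling. Atp5b, the catalytic beta subunit, stood at 872 CPM in the KO-labelled library and 842 CPM in the WT library (1.04). The 4 measured peripheral stalk genes had a ratio of 0.911, all 4 below 1 (3 of them with TMM scaling), and Atp5k, the membrane subunit e, was lowest of the complex with 303 CPM in the KO-labelled library and 378 CPM in the WT library (0.801). The 3 X-linked members, Ndufa1, Ndufb11 and Cox7b, had ratios of 0.963, 1.02 and 0.911, against 0.944 for the sum of the autosomal members. Atp5s, under the expression floor, had 16.3 CPM in the KO-labelled library and 16.5 CPM in the WT library.

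**Figure D2:**
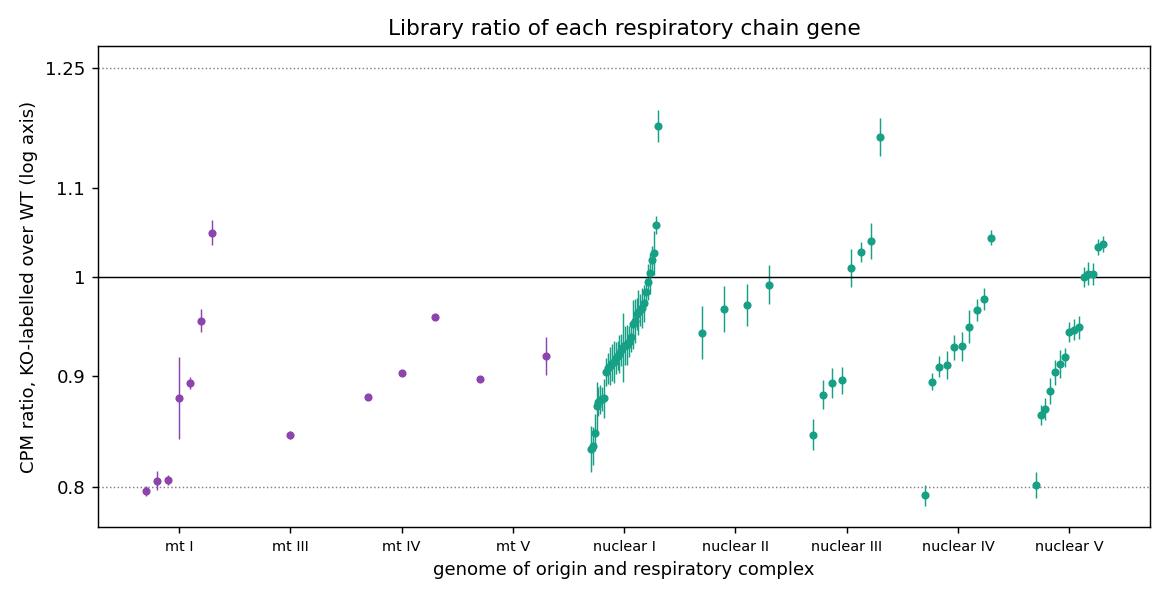
Ratio of the KO-labelled to the WT library (vertical log axis) for each member at 20 CPM or more, grouped by complex and genome, with 95% counting intervals. The mitochondrial genes centre lower, from mt-Nd2 at 0.796 to mt-Nd4l at 1.05, and the nuclear genes run from Cox5a at 0.793 to Ndufa6 at 1.17, a picture that TMM scaling moves upwards as a whole. Dotted lines mark the thresholds, the lower at 0.8.

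Expression was next compared between cells with and without a UMI of Procr, Pf4, Mpo, Car1 or Mki67, within each library. Procr encodes the endothelial protein C receptor of stem cells, Pf4 a platelet chemokine, Mpo the granule enzyme myeloperoxidase, Car1 a carbonic anhydrase of early red cells, and Mki67 a proliferation marker. Procr-positive cells numbered 788 (7.32%) in the KO-labelled library and 938 (9.90%) in the WT library. They carried more of other stem cell transcripts: Hlf was 3.98-fold and 3.78-fold, Mecom 4.32-fold and 3.002-fold, and Ly6a 5.06-fold and 5.59-fold the level of Procr-negative cells in the KO-labelled and the WT library. Slamf1, which encodes CD150 itself, was 0.594-fold and 1.19-fold. Itga2b was 2.55-fold and 3.30-fold in Pf4-positive cells, Elane 187-fold and 158-fold in Mpo-positive cells, Klf1 12.8-fold and 9.88-fold in Car1-positive cells, and Top2a 12.0-fold and 9.21-fold in Mki67-positive cells. A single UMI is a loose label. Among Mpo-positive cells 39.0% in the KO-labelled library and 61.1% in the WT library also held a Pf4 UMI. Among Mpo-negative cells 48.0% in the KO-labelled library and 64.4% in the WT library did. Median depth was 7776.5 UMIs in Procr-positive against 9428 in Procr-negative cells of the KO-labelled library, and 7690.5 against 10094.5 in the WT library. For Mki67 the difference was the opposite and larger, 12796.5 against 7261 UMIs in the KO-labelled library and 12733.5 against 6996 in the WT library.

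As shares of UMIs, nuclear respiratory transcripts were lower and mitochondrial ones, in sum, higher in Procr-positive than in Procr-negative cells of both libraries. The nuclear members summed to 18982 CPM in Procr-positive against 22699 CPM in Procr-negative cells of the KO-labelled library (ratio 0.836, 0.832 to 0.841). In the WT library the sums were 20022 and 24129 CPM, a ratio of 0.830 (0.826 to 0.834). The mitochondrial members summed to 47042 CPM in Procr-positive against 43354 CPM in Procr-negative cells of the KO-labelled library (1.085, 1.081 to 1.089) and to 54512 against 48617 CPM in the WT library (1.12, 1.118 to 1.124). By complex the mitochondrial ratio in the KO-labelled library was 0.996 for I, 1.04 for III, 1.13 for IV and 1.07 for V, and in the WT library 1.03, 1.08, 1.17 and 1.095, so complex I was not higher in the KO-labelled library. The mitochondrial-to-nuclear ratio of the chain was thus 2.48 in Procr-positive and 1.91 in Procr-negative cells of the KO-labelled library, and 2.72 and 2.01 in the WT library. Scaled to non-mitochondrial UMIs only, which frees the nuclear sum of the mitochondrial share, the nuclear members stood at 19919 CPM in Procr-positive against 23728 in Procr-negative cells of the KO-labelled library, and at 21177 against 25362 in the WT library. A ratio of 0.8 or less was seen for 25 of 73 nuclear members (34.2%) in the KO-labelled library, against 11.9% of all genes, and for 23 (31.5%) in the WT library, against 13.7% of all genes. None, 0 of 73, was at least 25% higher in either library, against 14.9% and 13.3% of all genes. Few were higher than in Procr-negative cells at all: 1 of 73 in the KO-labelled library and 2 of 73 in the WT library. The share of all genes above 1 is not given here. The median log2 ratio was -0.28 for the nuclear members in both libraries. For all genes at 20 CPM or more it was -0.01 in the KO-labelled library and -0.03 in the WT library. All 5 nuclear complexes were lower, with ratios of 0.808 for complex IV to 0.868 for complex II in the KO-labelled library, and 0.810 for complex IV to 0.859 for complex III in the WT library.

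Several transcripts of maturing lineages were lower in the same cells. Elane stood at 47.7 CPM in Procr-positive against 444 CPM in Procr-negative cells of the KO-labelled library and at 113 against 370 CPM in the WT library, Car1 at 91.3 against 413 CPM in the KO-labelled library and 156 against 528 CPM in the WT library, and Pf4 at 128 against 511 CPM in the KO-labelled library and 738 against 1556 CPM in the WT library. Hbb-bs stood at 23.4 against 552 CPM in the KO-labelled library and at 147 against 132 CPM in the WT library. The part of these lineages in the Procr difference was not tested.

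The Procr difference was also seen at matched depth, when positive and negative cells of 5000 to 15000 UMIs were weighted alike in bins of 1000 UMIs. The nuclear ratio was then 0.868 in the KO-labelled library and 0.835 in the WT library, and the mitochondrial ratio 1.11 in the KO-labelled library and 1.14 in the WT library. Of 74 nuclear members with UMIs, 69 were below 1 in both libraries, 2 above 1 in both (Uqcrh and Ndufs3), and 3 on opposite sides (Atp5s, Ndufa8 and Sdha). Among genes at 20 CPM or more in both comparisons, 69 of 73 nuclear members (94.5%) and 44.6% of all 5514 genes were below 1 in both. The count at a ratio of 0.8 or less was 11 of 73 (15.1%) in the KO-labelled library, against 8.54% of all genes, and 25 of 73 (34.2%) in the WT library, against 16.1%. Among cells without a Mki67 UMI the nuclear ratio of Procr-positive to Procr-negative cells was 0.844 in the KO-labelled library and 0.812 in the WT library, and the mitochondrial ratio 1.13 in the KO-labelled library and 1.17 in the WT library. Among Mki67-positive cells the nuclear ratio was 0.860 in the KO-labelled library and 0.880 in the WT library, and the mitochondrial ratio 1.04 in the KO-labelled library and 1.06 in the WT library.

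The lowest matched ratios belonged to members of 3 complexes. Ndufa1, an accessory subunit of complex I, stood at 74.6 CPM in Procr-positive against 109 CPM in Procr-negative cells of the KO-labelled library (0.685), and at 77.3 against 117 CPM in the WT library (0.662). Cox6a1, a dimer-interface subunit of complex IV, stood at 131 against 188 CPM in the KO-labelled library (0.699) and at 135 against 205 CPM in the WT library (0.657). Atp5g1, 1 of the 3 genes for the c subunit of ATP synthase, stood at 334 against 462 CPM in the KO-labelled library (0.723) and at 415 against 538 CPM in the WT library (0.771). These are about the same sizes in both libraries, whereas Cox5a differed more, 0.807 in the KO-labelled library and 0.673 in the WT library. At the other end, 12 of 13 mitochondrial genes were above 1 in both libraries. The share of all genes above 1 in both is not given here. Their median log2 ratio at matched depth was -0.01 in the KO-labelled library and -0.06 in the WT library. The highest of the 13 was mt-Co1, with 7508 CPM in Procr-positive against 6014 CPM in Procr-negative cells of the KO-labelled library (1.248) and 8098 against 6262 CPM in the WT library (1.29). The exception was mt-Nd1, with ratios of 0.972 in the KO-labelled library and 0.946 in the WT library.

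The other marker classes differed less once depth was matched. Mki67-positive cells had a higher share of nuclear respiratory transcripts over all cells, 24021 CPM against 19876 CPM in Mki67-negative cells of the KO-labelled library (1.21) and 24831 against 20961 CPM in the WT library (1.18). At least 25% higher were 26 of 73 (35.6%) in the KO-labelled library, against 17.9% of all genes, and 19 (26.0%) in the WT library, against 14.4%. At matched depth the sums were 21951 against 21957 CPM in the KO-labelled library and 23374 against 22238 CPM in the WT library, ratios of 0.9997 and 1.05, and 0 of 73 members were at least 25% higher in either library, against 10.4% and 10.1% of all genes. Mpo-positive cells had nuclear ratios of 1.07 in both libraries over all cells, and 0.992 and 1.02 at matched depth in the KO-labelled and the WT library. Car1-positive cells had 1.15 in the KO-labelled library and 1.08 in the WT library over all cells, and 1.01 in the KO-labelled library and 0.987 in the WT library at matched depth. For Car1, 16 of 73 (21.9%) were at least 25% higher over all cells of the KO-labelled library, where 16.3% of all genes were, and 4 (5.48%) in the WT library, where 8.03% were. Pf4-positive cells had 1.02 in the KO-labelled library and 1.05 in the WT library over all cells, and 1.02 in the KO-labelled library and 1.03 in the WT library at matched depth. For Pf4, 0 of 73 members were at least 25% higher, against 4.87% of all genes in the KO-labelled library and 5.27% in the WT library, and for Mpo 0 of 73, against 4.79% and 3.77%.

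The mitochondrial members were lower in Mki67-positive than in Mki67-negative cells, with ratios of 0.956 in the KO-labelled library and 0.913 in the WT library. At matched depth these were 0.990 in the KO-labelled library and 0.960 in the WT library. In the Pf4, Mpo and Car1 classes they lay between 0.960 and 1.003 over all cells, and between 0.955 and 1.01 at matched depth. The genes did not go together. In Mki67-positive cells of the KO-labelled library mt-Nd1 was 1.22-fold and mt-Co1 0.828-fold the level of Mki67-negative cells, and in the WT library they were 1.19-fold and 0.822-fold. In Procr-positive cells it was the reverse, 0.899 and 1.27 in the KO-labelled library and 0.905 and 1.31 in the WT library. At matched depth the Mki67 values were 1.02 for mt-Nd1 and 0.974 for mt-Co1 in the KO-labelled library, and 1.03 and 0.934 in the WT library.

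**Figure D3:**
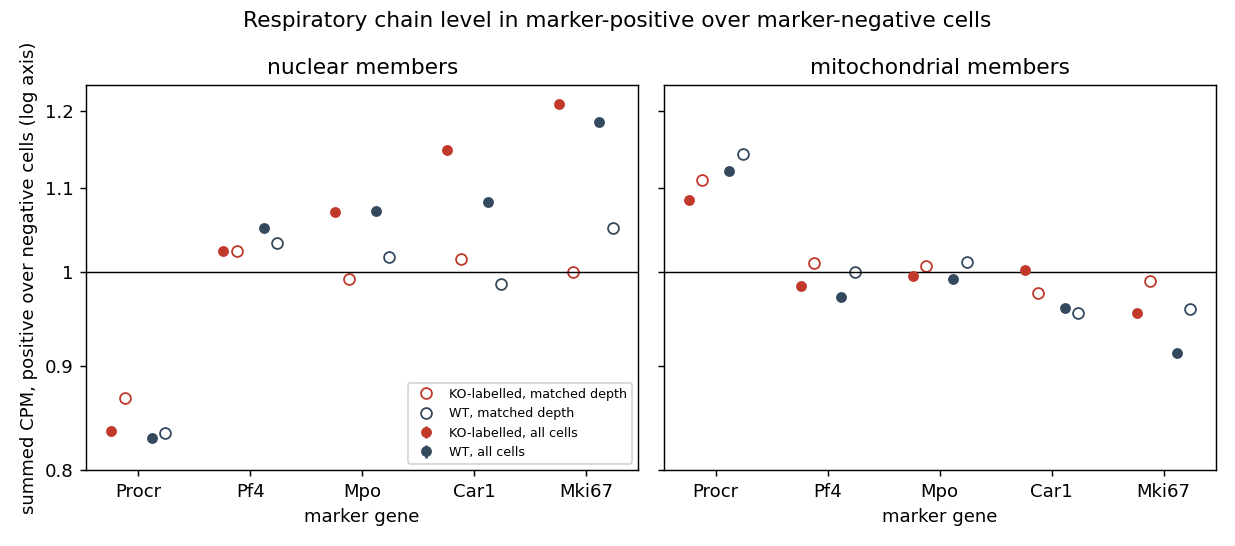
Ratio of marker-positive to marker-negative cells (vertical log axis) for the summed nuclear and the summed mitochondrial members in the 5 marker classes, for the KO-labelled library to the left of the WT library, with filled points for all cells and open points at matched depth; the 95% counting intervals are smaller than the points. Procr has the lowest nuclear and the highest mitochondrial ratio of the 5 markers in each library, over all cells and at matched depth. The nuclear Mki67 points stand at 1.21 (KO-labelled) and 1.18 (WT) over all cells and at 0.9997 and 1.05 at matched depth.

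The 3 genes for subunit c, which forms the rotating ring of the ATP synthase, encode the same mature protein with different import sequences, and they behaved unequally. Atp5g2 was the most abundant, with 896 CPM in the KO-labelled library and 868 CPM in the WT library (1.03), followed by Atp5g1 with 579 CPM in KO-labelled and 670 CPM in WT cells (0.863) and Atp5g3 with 287 CPM in KO-labelled and 314 CPM in WT cells (0.911). Over all cells, Atp5g1 had a Procr-positive to Procr-negative ratio of 0.656 in the KO-labelled library and 0.714 in the WT library, Atp5g3 0.796 in the KO-labelled library and 0.791 in the WT library, and Atp5g2 0.909 in the KO-labelled library and 0.885 in the WT library. In Car1-positive cells the order was turned round. Atp5g1 stood at 798 CPM against 495 CPM in Car1-negative cells of the KO-labelled library (1.61) and 830 against 596 CPM in the WT library (1.39), Atp5g3 had 1.28 in the KO-labelled library and 1.14 in the WT library, and Atp5g2 1.04 in the KO-labelled library and 1.02 in the WT library. At matched depth the Car1 ratio of Atp5g1 was 1.15 in the KO-labelled library and 1.09 in the WT library, and that of Atp5g2 0.988 in the KO-labelled library and 1.004 in the WT library. At matched depth the Procr ratio of Atp5g1 was 0.723 in the KO-labelled library and 0.771 in the WT library. That of Atp5g2 was 0.939 in the KO-labelled library and 0.871 in the WT library. The sums over the ring therefore hide a gene that varied more with Procr and Car1 state and one that varied less. For Car1 the contrast was smaller at matched depth than over all cells.

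The promoters of these 3 genes and of Ndufa1 and Cox6a1, the nuclear members with the lowest matched Procr ratios in the KO-labelled and in the WT library, are shown from 250 bases before to 50 bases after the RefSeq transcription start, with matches to the motif of NRF1 in capitals. NRF1 is a transcription factor known for binding promoters of nuclear respiratory genes, and the letters searched were GCGCA, any base and GCGC, in a row, on either strand. Sequences are from RefSeq on GRCm38.p6, written 5′ to 3′ on the gene's strand.
Atp5g1, chr11:96075582-96075881, minus strand: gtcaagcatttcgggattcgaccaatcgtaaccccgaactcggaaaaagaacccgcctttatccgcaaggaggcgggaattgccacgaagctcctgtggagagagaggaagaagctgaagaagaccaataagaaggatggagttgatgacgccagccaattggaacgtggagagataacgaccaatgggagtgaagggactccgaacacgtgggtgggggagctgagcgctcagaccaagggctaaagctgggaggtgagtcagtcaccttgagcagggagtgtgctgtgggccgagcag
Atp5g2, chr15:102670998-102671297, minus strand: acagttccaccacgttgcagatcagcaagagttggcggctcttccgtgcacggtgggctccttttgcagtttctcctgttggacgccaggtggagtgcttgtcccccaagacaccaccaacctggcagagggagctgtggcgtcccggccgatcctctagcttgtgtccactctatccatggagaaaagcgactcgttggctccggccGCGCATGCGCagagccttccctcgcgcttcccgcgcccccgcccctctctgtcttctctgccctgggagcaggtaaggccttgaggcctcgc
Atp5g3, chr2:73911277-73911576, minus strand: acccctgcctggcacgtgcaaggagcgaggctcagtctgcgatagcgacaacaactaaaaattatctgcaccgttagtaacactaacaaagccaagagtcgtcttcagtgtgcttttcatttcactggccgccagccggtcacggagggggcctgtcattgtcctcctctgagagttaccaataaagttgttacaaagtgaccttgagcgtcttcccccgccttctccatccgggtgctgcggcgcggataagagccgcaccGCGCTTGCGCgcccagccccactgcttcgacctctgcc
Ndufa1, chrX:37191189-37191488, minus strand: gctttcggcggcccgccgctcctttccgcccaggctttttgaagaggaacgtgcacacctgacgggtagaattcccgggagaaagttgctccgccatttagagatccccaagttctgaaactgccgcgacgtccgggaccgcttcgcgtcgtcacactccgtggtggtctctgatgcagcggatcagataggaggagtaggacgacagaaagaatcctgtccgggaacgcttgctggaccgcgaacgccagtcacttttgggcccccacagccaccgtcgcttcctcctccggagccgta
Cox6a1, chr5:115348909-115349208, minus strand: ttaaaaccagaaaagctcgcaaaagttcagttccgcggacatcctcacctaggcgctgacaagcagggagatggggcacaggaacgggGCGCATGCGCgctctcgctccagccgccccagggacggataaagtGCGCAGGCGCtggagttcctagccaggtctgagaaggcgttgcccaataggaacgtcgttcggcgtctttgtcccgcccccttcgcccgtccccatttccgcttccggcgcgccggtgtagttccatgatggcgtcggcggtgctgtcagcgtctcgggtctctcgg
The Atp5g1 and Ndufa1 windows held 0 matches, the Atp5g2 and Atp5g3 windows 1 each, and the Cox6a1 window 2. Promoters were found for 63 of the 74 nuclear symbols. The NRF1 motif was in 17 of these 63 (27.0%), against 1397 of 26742 genes (5.22%). The YY1 motif AAGATGGC was in 10 (15.9%), against 3.21% of all genes, the ETS motif CCGGAAGT in 5 (7.94%), against 4.35%, and the RUNX motif TGTGGT in 6 (9.52%), against 18.8%. Each was searched on both strands, a match is a description of the letters only, and genes with 2 windows counted once. The 26742 genes were not matched to the members for expression level or base composition.

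The lower mitochondrial level of the KO-labelled library was seen within each of the 5 classes of marker-positive cells, which do not hold the same cells in both libraries. In Mpo-positive cells Mcpt8 stood at 2.33 CPM in the KO-labelled library and 350 CPM in the WT library, and in Procr-positive cells Pf4 at 128 CPM in the KO-labelled library and 738 CPM in the WT library. In Procr-positive cells the 13 genes summed to 47042 CPM in the KO-labelled library and 54512 CPM in the WT library (ratio 0.863, 0.859 to 0.867). The ratio was 0.888 in Pf4-positive, 0.889 in Mpo-positive, 0.914 in Car1-positive and 0.895 in Mki67-positive cells. The nuclear ratio was 0.948 in Procr-positive, 0.943 in Pf4-positive, 0.943 in Mpo-positive, 0.987 in Car1-positive and 0.967 in Mki67-positive cells. In Procr-positive cells 4 of 13 mitochondrial genes had a ratio of 0.8 or less, against 10.7% of all genes: mt-Nd3 (582 CPM in the KO-labelled library and 791 CPM in the WT library, 0.735), mt-Nd2 (0.758), mt-Nd6 (0.763) and mt-Nd4 (0.790). All 4 belong to complex I. Of the 73 nuclear members, 3 had one, the complex I genes Ndufs6 (0.767) and Ndufb6 (0.774) and the c subunit gene Atp5g1, with 388 CPM in the KO-labelled library and 491 CPM in the WT library (0.790). The 1 at least 25% higher was Ndufa4, with 713 CPM in the KO-labelled library and 566 CPM in the WT library (1.26), where 6.71% of all genes passed. In Pf4-positive cells 3 of 13 mitochondrial and 2 of 73 nuclear members (Cox5a and Atp5k) were lower, against 8.9% of all genes. In Mpo-positive cells 1 of 13 and 1 of 73 were, against 8.58%. In Car1-positive and Mki67-positive cells 0 were, against 9.6% and 7.74%. Nuclear members at least 25% higher numbered 0 in Pf4-, Mpo-, Car1- and Mki67-positive cells, against 5.07%, 4.7%, 4.39% and 4.4% of all genes.

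Across single cells the nuclear level was lower where the mitochondrial share was highest. Cells of each library were cut into 5 groups of equal size by their share of mitochondrial UMIs, and nuclear members were scaled to non-mitochondrial UMIs (CPM of the non-mitochondrial total). From the lowest to the highest group they stood at 23762, 24039, 23903, 23147 and 22169 CPM in the KO-labelled library, and at 25542, 25897, 25732, 24655 and 21537 CPM in the WT library. The first 3 groups were close to each other and the last was lowest in both libraries. The non-mitochondrial total includes ribosomal protein UMIs, which went up along the groups. In the lowest and the highest group they took 314677 and 357262 CPM of that total in the KO-labelled library. In the WT library they took 287788 and 331411 CPM. The part of the ribosomal protein UMIs in the nuclear difference was not tested. Along the same groups the share of Procr-positive cells went up, with 2.32% in the lowest and 15.4% in the highest group of the KO-labelled library and 2.22% in the lowest and 24.1% in the highest group of the WT library. The share of Mki67-positive cells was 55.6% in the lowest and 30.5% in the highest group of the KO-labelled library and 69.3% in the lowest and 29.6% in the highest group of the WT library. Median depth was 10266 UMIs in the lowest and 7215 in the highest group of the KO-labelled library, and 10809 in the lowest and 6601 in the highest group of the WT library. Over 10769 cells of the KO-labelled library and 9472 of the WT library, Spearman's rho between the mitochondrial share and the nuclear level was -0.19 in the KO-labelled library and -0.30 in the WT library, and between the nuclear level and UMIs per cell 0.57 in the KO-labelled library and 0.55 in the WT library. Each pair of values comes from the same cell and shares its depth.

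**Figure D4:**
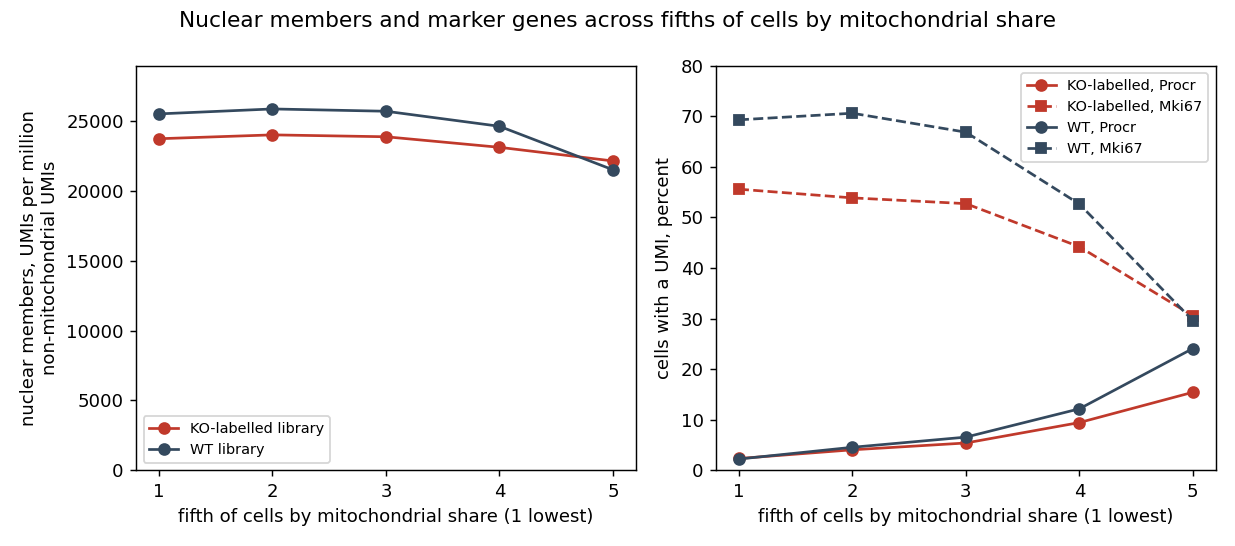
Nuclear members in CPM of non-mitochondrial UMIs (left) and percent of cells with a Procr or Mki67 UMI (right) in 5 equal groups of cells ordered by mitochondrial share (horizontal axis, lowest to highest), for the KO-labelled and the WT library. The highest group has the lowest nuclear level, 22169 and 21537 CPM, and the most Procr-positive cells, 15.4% and 24.1%. The total used includes ribosomal protein UMIs, which go up along the groups.

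Genes that work with the chain mostly had library ratios near those of the nuclear members, and TMM scaling takes sums of about 0.94 past 1 here too. The sums that follow cover every gene of a list, while the counts below 1 cover only its genes at 20 CPM or more. These counts stand beside 65% of all genes, and run from 44.4% of the peroxide and uncoupling list to 92.3% of the complex IV assembly list, with the tricarboxylic acid cycle at 61.5%. The 11 subunits and carriers that the symbol pattern leaves out had a summed ratio of 0.944. Of the 10 at 20 CPM or more, 9 were below 1, among them Cycs, the electron carrier cytochrome c, at 133 CPM in the KO-labelled library and 181 CPM in the WT library (0.735). Cox7a2l, which helps join complexes III and IV, was the 1 of these 10 above 1, with 518 CPM in KO-labelled and 452 CPM in WT cells (1.15). Assembly factors had summed ratios of 0.910 for complex I (6 of 8 below 1), 0.920 for complex IV (12 of 13) and 0.920 for complexes II, III and V (5 of 10). The last list held Uqcc2, a complex III assembly factor, at 138 CPM in the KO-labelled library and 192 CPM in the WT library (0.721). Lrpprc, which stabilises mitochondrial messenger RNAs, stood at 31.7 CPM in the KO-labelled library and 42.2 CPM in the WT library (0.749). Tfam, which packages mitochondrial DNA and starts its transcription, stood at 69.5 CPM in KO-labelled and 75.3 CPM in WT cells (0.922). The mitochondrial ribosome had a summed ratio of 0.938, with 56 of 73 below 1, protein import 0.931 (16 of 19), the tricarboxylic acid cycle 0.955 (8 of 13) and pyruvate entry 0.934 (5 of 7). Of 10 nuclear regulators 6 reached a mean of 20 CPM, 3 of them below 1. Among these 6, Pprc1, a PGC-1 related coactivator, was lowest at 17.4 CPM in the KO-labelled library and 24.5 CPM in the WT library (0.710). Myc was the highest of the 6 at 80.5 CPM in KO-labelled and 72.2 CPM in WT cells (1.11). The list of peroxide removal and uncoupling genes was the 1 with a sum above 1 (1.04). There Ucp2, an inner membrane carrier of the uncoupling protein family, stood at 339 CPM in the KO-labelled library and 250 CPM in the WT library (1.36, 1.34 to 1.38), more than the 25% that 4.79% of all genes reached.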

How the data were processed

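Single-cell 3′ RNA-seq was made from 1 library per genotype label. The authors deposited UMI counts per gene and barcode, for which the submitters' processing notes name Cell Ranger 2.1.1 and mm10, and the file headers software version 3.1.0. The 3′ v2 kit is given in the labels' protocols. Counts were used as deposited. Kept cells had 500 or more genes and 10% or less of mt- UMIs, which left out 629 of 11398 KO-labelled and 497 of 9969 WT barcodes. Doublets were not removed.

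UMIs were summed over cells and scaled to a total of 1000000 (CPM). Ratios have exact conditional binomial 95% intervals, with 3 counts in place of 0. UMIs are 3′ tags and were not scaled by transcript length. Genes entered counts at a mean of 20 CPM over the 2 groups compared. Marker-positive meant at least 1 UMI. The library ratio, its interval and the counts past the fold threshold were tested on simulated library sums, and the other steps were not. Members and lists were chosen with earlier results of these data known. Named genes were all mt-, Sdh, Atp5g and X-linked members, those under the floor, the most abundant and the extreme library ratios per complex, and the extremes per list; other genes, including those in the Procr and within-class comparisons, were chosen after their values were seen. Strata, thinning to 3000 UMIs, filters, scalings and marker cuts were varied; matching on depth and the split by Mki67 were added after the data were seen. Positions are from GENCODE M21 (GRCm38). Python 3.11.15, numpy 2.4.6, scipy 1.17.1, pandas 2.3.3, matplotlib 3.10.9 and edgeR 4.0.16 (for TMM factors only) were used.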

Additional observations from a re-analysis of the deposited data

Results flagged for a closer look

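In 5 sums the marker-positive to marker-negative ratio lay on opposite sides of 1 in the 2 libraries with both 95% counting intervals clear of 1, and the difference between the libraries was not tested. The 13 mitochondrial genes had a Car1 ratio of 1.003 in the KO-labelled library and 0.960 in the WT library. Within them, mt-Cytb of complex III had a Car1 ratio of 1.08 in the KO-labelled library and 0.973 in the WT library, and the complex V pair mt-Atp6 and mt-Atp8 had 1.006 in the KO-labelled library and 0.963 in the WT library. For Mki67, mt-Cytb had 1.02 in the KO-labelled library and 0.961 in the WT library. For Pf4, the 7 mitochondrial complex I genes had 0.974 in the KO-labelled library and 1.01 in the WT library.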

How the results depend on the processing

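No paired analysis was possible because there was 1 library per genotype, and leaving out a replicate was likewise not done.

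The nuclear library ratio (0.945) was 1.01 with TMM scaling, 0.981 on a total without mt- and ribosomal protein genes, 0.934 as a mean over cells, 0.924 with 1000 or more genes and 5% or less of mt- UMIs, 0.925 without the 5% deepest cells, 0.933 thinned to 3000 UMIs, 0.958 with the same mix of marker states, 0.931 in cells of 5000 to 15000 UMIs and 0.938 in male cells (973 KO-labelled and 6690 WT cells). The mitochondrial ratio (0.887) was, in the same settings up to the cell window, 0.949, 0.921, 0.872, 0.939, 0.880, 0.875, 0.875 and 0.877, and was 0.915 over all barcodes and 0.894 without the mt- limit. The 5% limit kept 8701 KO-labelled and 4985 WT cells, cutting the measure itself.

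Nuclear members at a ratio of 0.8 or less (1) numbered 0 with TMM, on the reduced total and with the same mix, 2 as a mean over cells, under the strict filter, thinned and in male cells, 5 without the deepest cells and 4 in the UMI window; 0 passed 1.5-fold and 21 passed 1.1-fold. Mitochondrial members (1) numbered 0 with TMM, on the reduced total, over all barcodes, without the mt- limit, under the strict filter and at 1.5-fold, 3 as a mean over cells, without the deepest cells, thinned and in male cells, 2 with the same mix and in the window, and 9 at 1.1-fold. The share of all genes at 0.8 or less is not given for the altered scalings and cell filters. The median log2 ratio of all genes moved too, from -0.07 in the main setting to 0.03 with TMM and -0.08 under the strict filter. The counts therefore cannot be read as changes of the members alone.

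As geometric means of both libraries, the Procr nuclear ratio (0.833) was 0.851 at matched depth, 0.828 in Mki67-negative and 0.870 in Mki67-positive cells, 0.801 with at least 2 UMIs, 0.880 in cells positive for Procr only and 0.826 in the window. The Pf4 ratio (1.04) was 1.03, 1.05, 1.12 and 1.06 at matched depth, with at least 2 UMIs, in cells positive for that marker only and in the window; in the same order Mpo (1.07) was 1.004, 1.11, 1.13 and 1.03, Car1 (1.11) 1.0006, 1.17, 1.06 and 1.01, and Mki67 (1.197) 1.03, 1.21, 1.16 and 1.11. The Procr mitochondrial ratio (1.103) was 1.13 at matched depth, 1.15 in Mki67-negative and 1.05 in Mki67-positive cells, 1.13 with at least 2 UMIs, 1.13 for Procr only and 1.14 in the window. For Pf4 (0.978) it was 1.01 at matched depth, 0.967 with at least 2 UMIs and 0.991 in the window, for Mpo (0.994) 1.01 at matched depth, 0.975 for Mpo only and 0.997 in the window, for Car1 (0.981) 0.966, 0.979, 0.920 and 0.962, and for Mki67 (0.934) 0.975, 0.930 and 0.925 without a window value that moved. In cells with at least 2 UMIs the nuclear library ratio was 0.933 for Procr, 0.946 for Pf4, 0.940 for Mpo, 1.0007 for Car1 and 0.972 for Mki67, and the mitochondrial one 0.871, 0.882, 0.929 and 0.898 for Procr, Mpo, Car1 and Mki67. Between the groups of cells with the highest and the lowest mitochondrial share, the nuclear members had a ratio of 0.933 in the KO-labelled and 0.843 in the WT library, and 0.924 and 0.825 without the mt- limit. These ratios are on the non-mitochondrial total, ribosomal protein UMIs included.

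Of the markers, the Procr library ratio (0.749) was 1.51 under the strict filter, and the Mpo ratio (1.32) was 0.974 with the same mix, where strata are defined by Mpo itself. With 1 library per genotype, library-level differences of handling and of genotype cannot be told apart. Sex, by Xist and Y-linked genes, also goes with the label. In male cells alone the nuclear library ratio was 0.938 and the mitochondrial one 0.886. The part of sex in the other library differences was not tested. Values near 1 at single genes are not distinguishable from the scaling.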
